A study of Mus musculus with 11 samples.

Results

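The immediate early genes of neuronal activity described here are Fos, Fosb, Junb, Egr1, Egr2, Nr4a1, Arc, Npas4, Ier2 and Dusp1. They were taken by name, as every mouse probe on the arrays whose accession matched one of these symbols. Each gene had 1 probe, so the set holds 10 probes of 39429 mouse probes on the array, and 10 genes of the 19987 that could be matched to a symbol. All 10 probes were well above background on all 11 arrays, and no array lacked a value for any of them. Expression was measured in the hypothalamus of male C57BL/6N offspring at P21, in 6 HFD samples and 5 CO samples, each on its own Agilent array with a single dye. HFD offspring came from dams that received a high-fat diet from weaning through the time before conception, gestation and lactation, and CO offspring (labelled SD) came from dams on standard chow over the same period. The comparison asks how maternal obesity changes gene expression in the offspring. The methods allow up to 2 offspring of a dam in a group, and the labels do not say which samples share a dam or whether a sample is 1 animal, and the p-values thus rest on the spread among the samples as they are. The CO labels fall under 2 leading numbers of unstated meaning, while the HFD labels share 1 prefix. The leading number was tried as a random block among the alternatives.

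Immediate early genes are transcribed within minutes of a stimulus, without the need for new protein. In neurons, calcium entry during firing activates kinases, which act on transcription factors already bound at these genes, such as CREB at cAMP response elements and SRF at CArG boxes. Most of the products are themselves transcription factors that switch on a later set of genes, while others act at the synapse or shut the kinase signal off. In the hypothalamus, Fos and its relatives are widely used to mark neurons activated by fasting, feeding, stress or hormones.

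Upstream sequences from RefSeq (mouse build GRCm38.p6) were searched for 7 of the 10 genes, namely Fos, Fosb, Junb, Egr2, Nr4a1, Npas4 and Dusp1. The search covered 250 bases before the transcription start on both strands. Egr1, Arc and Ier2 were not searched, so the counts of elements among the 7 say nothing about them. The cAMP response element core TGACG, which reads CGTCA on the other strand, was found in 7 of these 7 genes, against 19.8% of 27025 genes and 17.8% of 32851 promoters of the same length. The full element TGACGTCA, which contains that core, was found in Dusp1 alone of the 7, against 1.77% of genes and 1.55% of promoters. A CArG box was found within the 250 bases in Egr2 alone of the 7, against 1.62% of genes and 1.47% of promoters. Sequence farther upstream was not searched, so the other genes may hold one there. TATAAA was found in Fos alone of the 7, against 8.94% of genes and 7.59% of promoters. The sequence of Fos is shown as the best known member, those of Nr4a1 and Npas4 for their repeated cores, that of Egr2 for a CArG box among its cores, and that of Dusp1 for the full element. Capitals mark the TGACG core on either strand, the full element and the CArG box, and each sequence runs 5′ to 3′ in the direction of its gene. For Egr2, which has 5 listed starts, the window of the third is shown, and the windows of the first and second hold no TGACG core.
Fos, chr12:85473640-85473889, strand +: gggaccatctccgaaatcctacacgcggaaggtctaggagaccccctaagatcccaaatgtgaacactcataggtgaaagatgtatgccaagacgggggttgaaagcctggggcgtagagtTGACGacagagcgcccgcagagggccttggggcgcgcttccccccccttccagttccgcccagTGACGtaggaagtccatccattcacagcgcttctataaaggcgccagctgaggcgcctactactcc
Egr2, chr10:67537619-67537868, strand +: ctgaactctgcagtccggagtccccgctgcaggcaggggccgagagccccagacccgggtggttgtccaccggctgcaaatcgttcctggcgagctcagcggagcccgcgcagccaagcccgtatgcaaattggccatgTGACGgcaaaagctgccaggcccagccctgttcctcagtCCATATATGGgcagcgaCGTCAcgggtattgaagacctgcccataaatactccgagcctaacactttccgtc
Nr4a1, chr15:101266596-101266845, strand +: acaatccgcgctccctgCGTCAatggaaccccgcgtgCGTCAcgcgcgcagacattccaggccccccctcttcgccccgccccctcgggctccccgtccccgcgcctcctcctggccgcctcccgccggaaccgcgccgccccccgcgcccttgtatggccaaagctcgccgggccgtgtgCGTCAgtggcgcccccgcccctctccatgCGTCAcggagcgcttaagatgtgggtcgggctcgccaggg
Npas4, chr19:4989972-4990221, strand -: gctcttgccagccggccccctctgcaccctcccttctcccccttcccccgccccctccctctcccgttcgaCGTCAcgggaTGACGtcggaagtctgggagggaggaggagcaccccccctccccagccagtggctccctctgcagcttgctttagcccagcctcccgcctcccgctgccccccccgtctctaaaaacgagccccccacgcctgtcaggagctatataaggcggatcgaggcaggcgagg
Dusp1, chr17:26508473-26508722, strand -: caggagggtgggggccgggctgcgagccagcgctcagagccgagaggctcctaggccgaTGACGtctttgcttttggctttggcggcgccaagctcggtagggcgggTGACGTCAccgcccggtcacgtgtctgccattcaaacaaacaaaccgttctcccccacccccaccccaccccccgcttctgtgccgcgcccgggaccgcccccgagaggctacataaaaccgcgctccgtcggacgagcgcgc

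In Fos, the 2 cores began 129 and 66 bases before the start, and in Npas4 they began 179 and 169 bases before it. Nr4a1 held 4 cores, the first 233 and the last 40 bases before its start. In the Egr2 window the CArG box lay between the 2 cores, which began 111 and 55 bases before the start. Fosb and Junb held 1 core each, 60 and 106 bases before their starts. These matches describe letters in a fixed window and were not compared with the expression values.

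Of the 10 genes, 9 were lower in HFD offspring than in controls, none was higher, and Dusp1 was not called. The median difference of the members was -0.94 on the log2 scale, against -0.17 over the 17186 genes tested. Levels are given as log2 of the processed signal minus the 75th percentile of the array, and a probe was called when its adjusted p from limma was under 0.05. Many other genes differed as well. Of all genes tested, 44.1% were called lower in HFD offspring, 22.2% higher and 66.4% either way, and over single probes the shares were 43.6%, 23.6% and 67.1%. For 6 members (Fos, Junb, Nr4a1, Arc, Npas4 and Ier2) every HFD array lay below every CO array, which was the case for 30.5% of all genes, while the opposite order was found for 16.1% of all genes and for no member. A call together with a difference of at least 1 log2 unit downward was found for Egr2, Junb, Nr4a1, Arc and Fos, against 10% of all genes.

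The CO and HFD arrays were scanned in separate sessions, with different extraction protocols of the scanner software and on different slides, so maternal diet and array batch cannot be told apart. The 75th percentile of the signal was 3135 to 3447 intensity units on HFD arrays and 2216 to 2932 on CO arrays. Between 71.8 and 77.4% of mouse spots were well above background on HFD arrays, against 82.5 to 85.7% on CO arrays, and no mouse spot was saturated. After scaling, 8 spike-in probes were 0.67 log2 units higher on HFD arrays. With the spike-in probes as the scale the median of all genes moved to -0.84. All 10 members were then called lower, as were 83.5% of all genes. Of 15 hypothalamic markers, 3 were higher and 2 lower, while 10, including Pomc, Agrp, Avp and Oxt, were not called. Higher were Sim1 (3.40), Pmch (0.87) and Hcrt (0.58), and lower were Sst (-0.39) and Six3 (-0.40). All but Sim1 and Otp were well above background on all arrays. Sim1 was so on 6 arrays only, and its call may lean on the filter on dim probes. Over all genes, 22.2% were called higher and 44.1% lower.

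**Figure D1:**
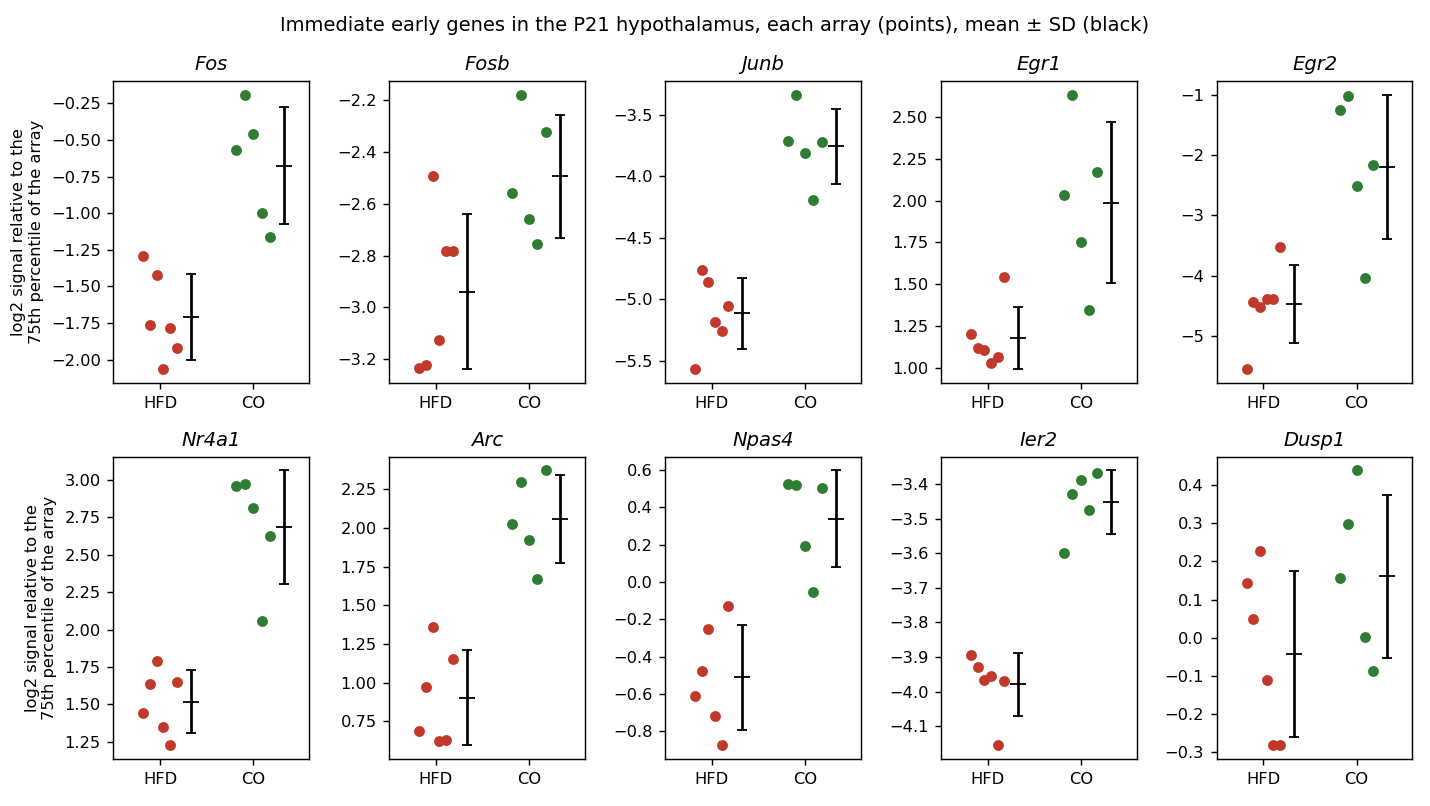
Level of each immediate early gene (vertical axis, log2 signal relative to the 75th percentile of the array, a separate scale for each gene) on 6 HFD arrays (red, left) and 5 CO arrays (green, right), with the mean and SD in black. The groups do not overlap for Fos, Junb, Nr4a1, Arc, Npas4 and Ier2.

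Fos, Fosb and Junb encode subunits of AP-1, a dimer of a Fos and a Jun protein that binds DNA. Fos gave 1336, 1019, 1169, 789, 922 and 869 intensity units on HFD arrays 1 to 6, and 1598, 2244, 1749, 1464 and 992 on CO arrays 1 to 5. Relative to the 75th percentile these were log2 levels of -1.29, -1.76, -1.42, -2.07, -1.79 and -1.92 in HFD offspring, and of -0.57, -0.19, -0.46, -1.0 and -1.16 in controls. The highest HFD array, replicate 1, was close to the lowest CO array, replicate 5, and the groups did not overlap on this scale, while the intensities before scaling did. Fos averaged -1.71 ± 0.30 in HFD offspring (SD, n = 6) and -0.68 ± 0.40 in controls (SD, n = 5), a difference of -1.03 (SE 0.19, adjusted p 0.000574) or 2.04-fold lower. Fos was spotted 10 times on each array, of which 9 were used on HFD array 6, and the SD among these spots was 0.033 to 0.119 log2 units, smaller than the SD between arrays of either group.

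Junb had the largest decrease of these AP-1 genes. On the HFD arrays its log2 level was -5.57, -4.76, -4.86, -5.18, -5.25 and -5.06, against -3.71, -3.34, -3.81, -4.19 and -3.73 on the CO arrays. CO replicate 4 was the lowest control and still lay above HFD replicate 2, the highest HFD array, and the groups were separate before scaling as well. Junb averaged -5.11 ± 0.29 in HFD offspring (SD, n = 6) and -3.76 ± 0.30 in controls (SD, n = 5), 2.56-fold lower (difference -1.36, SE 0.17, adjusted p 2.80e-05). The signal was weak, at 69 to 127 intensity units on HFD arrays and 160 to 253 on CO arrays, and with a normexp background correction the difference was -0.79 and did not pass the test (adjusted p 0.116).

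Fosb showed the smallest of the called differences. Levels on the log2 scale were -3.23, -3.22, -2.49, -3.13, -2.78 and -2.78 in HFD offspring, and -2.56, -2.18, -2.66, -2.75 and -2.32 in controls. HFD replicate 3 lay within the range of the controls, and the intensities before scaling, 347 to 557 on HFD arrays and 380 to 566 on CO arrays, covered nearly the same range. The difference was -0.45 (SE 0.15, adjusted p 0.0237), or 1.36-fold lower, and it passed the test in some settings only. It did not pass without HFD replicate 2 (adjusted p 0.0507), without CO replicate 2 (0.0635), without CO replicate 5 (0.0561) or with normexp (difference -0.23, adjusted p 0.507).

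Egr1 and Egr2 encode zinc finger transcription factors of the Egr family. Egr2, also known for its part in hindbrain patterning and in myelination by Schwann cells, had the largest difference of the 10 members, and 0.937% of all genes tested had a lower one. Its signal was 69, 158, 136, 157, 151 and 285 intensity units on HFD arrays 1 to 6, and 994, 1273, 421, 179 and 494 on CO arrays 1 to 5. On the log2 scale the HFD arrays were at -5.56, -4.45, -4.53, -4.39, -4.39 and -3.53, and the CO arrays at -1.25, -1.01, -2.51, -4.03 and -2.17. CO replicate 4 lay among the HFD arrays, below HFD replicate 6, and the other 4 controls lay above every HFD array. Egr2 averaged -4.48 ± 0.65 in HFD offspring (SD, n = 6) and -2.20 ± 1.20 in controls (SD, n = 5), 4.86-fold lower (difference -2.28, SE 0.51, 95% confidence interval -3.39 to -1.17, adjusted p 0.00195). With normexp the difference was -1.59 (adjusted p 0.0267). Leaving out 1 array at a time moved it between -2.74, without CO replicate 4, and -1.98, without CO replicate 2.

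Egr1 is the member of this family most used as a marker of synaptic plasticity. Log2 levels of Egr1 were 1.20, 1.12, 1.11, 1.03, 1.07 and 1.54 in HFD offspring, and 2.03, 2.63, 1.75, 1.35 and 2.17 in controls. The HFD arrays lay close together except for replicate 6, which was above CO replicate 4, so that the groups overlapped by 1 array on each side. Before scaling the overlap was wider, at 6653 to 9568 intensity units on HFD arrays and 7457 to 15887 on CO arrays. Egr1 averaged 1.18 ± 0.19 in HFD offspring (SD, n = 6) and 1.99 ± 0.48 in controls (SD, n = 5), 1.75-fold lower (difference -0.81, SE 0.19, adjusted p 0.00302). The SD among controls was 2.56 times that among HFD offspring, a ratio that was not tested.

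Nr4a1 encodes an orphan nuclear receptor that needs no known ligand and is controlled by how much of it is made. It gave 8883, 10701, 10841, 8424, 7430 and 10291 intensity units on HFD arrays 1 to 6, and 18458, 20155, 16860, 12201 and 13653 on CO arrays 1 to 5. The groups were separate already before scaling. Its log2 levels were 1.44, 1.63, 1.79, 1.35, 1.23 and 1.65 in HFD offspring, and 2.96, 2.98, 2.81, 2.06 and 2.62 in controls. The mean was 1.52 ± 0.21 in HFD offspring (SD, n = 6) and 2.69 ± 0.38 in controls (SD, n = 5), 2.25-fold lower (difference -1.17, SE 0.17, adjusted p 8.46e-05).

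Npas4 encodes a transcription factor that is induced by calcium entry in neurons and sets the number of inhibitory synapses. Its log2 levels were -0.61, -0.48, -0.25, -0.72, -0.87 and -0.13 in HFD offspring, and 0.53, 0.52, 0.19, -0.05 and 0.50 in controls. HFD replicate 6 and CO replicate 4 were neighbours, with no overlap, and CO replicates 1, 2 and 5 lay close together at the top. The intensities before scaling did overlap, at 1733 to 3006 on HFD arrays and 2745 to 3670 on CO arrays. Npas4 was 1.80-fold lower in HFD offspring (difference -0.85, SE 0.15, adjusted p 0.00048).

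Arc does not act as a transcription factor. Its messenger RNA travels into dendrites, and the protein helps remove AMPA receptors from active synapses. Arc gave 5265, 6756, 8054, 5090, 4922 and 7304 intensity units on HFD arrays 1 to 6, and 9638, 12600, 9086, 9349 and 11460 on CO arrays 1 to 5. Every CO intensity exceeded every HFD intensity. On the log2 scale the levels were 0.69, 0.97, 1.36, 0.62, 0.63 and 1.15 in HFD offspring, and 2.02, 2.30, 1.92, 1.67 and 2.37 in controls. Arc averaged 0.90 ± 0.31 in HFD offspring (SD, n = 6) and 2.06 ± 0.28 in controls (SD, n = 5), 2.22-fold lower (difference -1.15, SE 0.17, adjusted p 9.51e-05).

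Ier2 is a nuclear protein of the fast response whose function is less well known. Its log2 levels were -3.89, -3.93, -3.97, -3.95, -4.15 and -3.97 in HFD offspring, and -3.60, -3.43, -3.39, -3.48 and -3.37 in controls. The arrays of each group lay within 0.26 and 0.23 log2 units, the narrowest spread of the members. The difference was -0.53 (SE 0.066, adjusted p 3.24e-05), or 1.44-fold lower, and the groups did not overlap on this scale. Before scaling, the intensities were 178 to 226 on HFD arrays and 196 to 264 on CO arrays and overlapped, and with normexp the difference was -0.30 and did not pass the test (adjusted p 0.264).

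Dusp1 encodes a phosphatase that inactivates the MAP kinases ERK, JNK and p38, and so acts as a brake on the signal that induces the other genes. Its log2 levels were 0.14, 0.05, 0.23, -0.11, -0.28 and -0.28 in HFD offspring, and 0.16, 0.30, 0.44, 0.00 and -0.09 in controls. The groups overlapped over most of their range. The difference was -0.20 (SE 0.12, adjusted p 0.166), with a 95% confidence interval of -0.48 to 0.069, and 47.5% of all genes had a lower difference. With array weights and an intensity trend it was -0.31 and passed the test (adjusted p 0.0284).

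**Figure D2:**
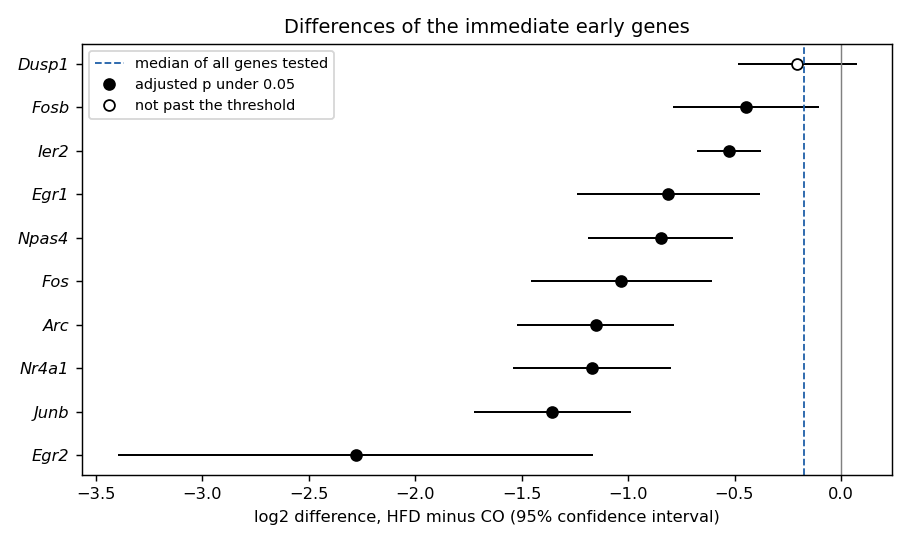
Difference of each immediate early gene between HFD and CO offspring (horizontal axis, log2, HFD minus CO) with its 95% confidence interval. Filled points passed the test (9 genes), the open point (Dusp1, -0.20) did not, and the dashed line marks the median of all genes tested (-0.17).

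The members differed from each other in how the arrays of a group were spread. The range within a group was widest for Egr2, at 2.04 log2 units over HFD arrays and 3.03 over CO arrays, and narrowest for Ier2. CO replicate 4 was the lowest control for Junb, Egr1, Egr2, Nr4a1, Arc, Npas4 and Fosb, whereas CO replicate 5 was the lowest for Fos and Dusp1 and CO replicate 1 for Ier2. CO replicate 2 was the highest control for Fos, Fosb, Junb, Egr1, Egr2 and Nr4a1. Without CO replicate 2 the count of members called lower was 8, and without any other array it was 8 or 9. Of all genes, 41.0 to 44.1% were called lower in these fits.

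After the mean of each group was subtracted, 41 of the 45 pairs of members correlated positively over the 11 arrays, with a median Pearson r of 0.54 and a range of -0.24 to 0.89. Arc and Npas4 formed the closest pair, with r = 0.89 (permutation p 0.000833, adjusted over the 45 pairs 0.0375) and Spearman's rho = 0.87 (adjusted p 0.0479). Their r was 0.87 without HFD replicate 3 and CO replicate 4, the arrays farthest from the median of Arc, and 0.90 over the 6 HFD arrays alone. Nr4a1 and Npas4 followed with r = 0.81 (permutation p 0.00338, adjusted p 0.0507), which was 0.62 without HFD replicate 5 and CO replicate 4, and with rho = 0.85 (adjusted p 0.0479). By Pearson's r 1 pair was past the threshold and by Spearman's rho these 2 pairs were, and with quantile normalization none of the 45 pairs passed by Pearson's r. Fos and Dusp1 had r = 0.81 (permutation p 0.00716, adjusted p 0.0744) and 0.81 without HFD replicate 1 and CO replicate 2. Ier2 with Egr2 gave the lowest value, r = -0.24 (permutation p 0.527). All permutations were made within groups, two-sided and over all 86400 arrangements. Values on one array share its scale, so a common shift of an array moves all members together.

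**Figure D3:**
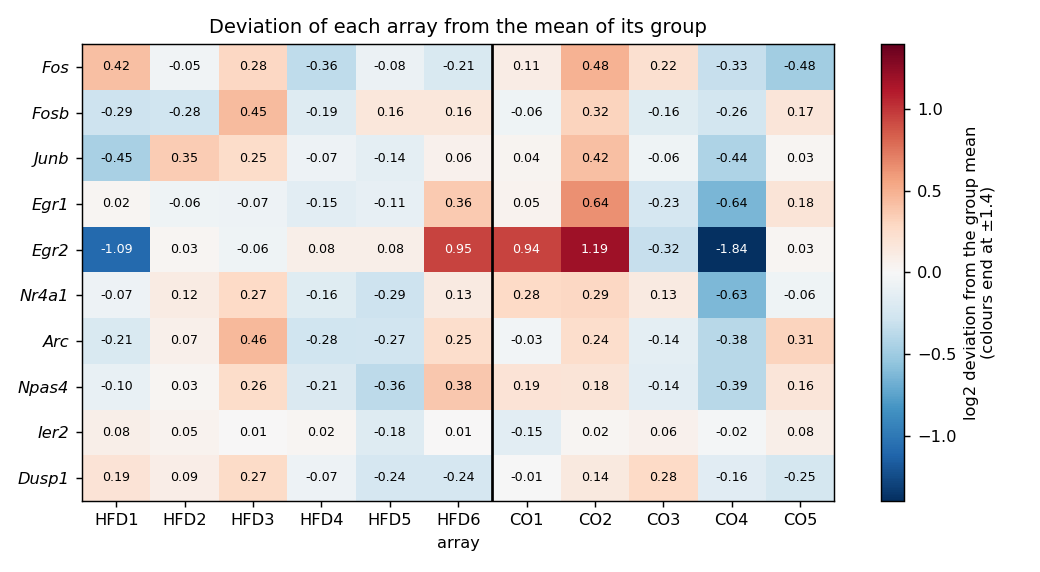
Deviation of each array (columns, HFD replicates 1 to 6 at the left and CO replicates 1 to 5 at the right) from the mean of its group for each member (rows), in log2 units. CO replicate 4 is below the mean of its group for all 10 genes and CO replicate 2 above it for all 10.

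The genes whose values followed a member most closely were sought for Fos and for Egr1 over the 11 arrays, with the group means subtracted, among 15358 genes well above background on all arrays. For Fos these were Trmt1l (r = 0.93), Cnksr3 (0.91), Rcsd1 (0.91), Cited2 (0.90) and Agbl5 (0.90). For Egr1 they were Inpp4a (r = 0.96), Pcsk2 (0.95), Bcr (0.95), Sh2d5 (0.94) and Nup35 (0.93). The members themselves were left out of the search. The order describes these 11 arrays, and no test was made.

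The remaining members of the same families were counted over the gene-level fit. Of 15 tested, 9 were lower in HFD offspring, 1 was higher and 5 were not called, at a median difference of -0.39. Over all genes, 44.1% were called lower and 22.2% higher. The 9 include Dusp5 and Fosl1, which passed the filter on dim probes only through the CO arrays. The count and the median thus lean on that filter in part. Jun, the partner of Fos in AP-1, was lower by a small amount (-0.33, SE 0.056, adjusted p 0.000357). Dusp4 (-0.53, adjusted p 0.00042) and Dusp2 (-0.48, adjusted p 0.00307), phosphatases of MAP kinases, were lower without overlap. Dusp5 and Fosl1 were not well above background on any HFD array and were well above it on all 5 CO arrays, at least 2.60-fold and at least 1.83-fold lower against the lowest signal well above background on each HFD array. The brightest probe of Ier5 was lower (-0.96, adjusted p 3.96e-05), while its other probe differed by 0.011. Jund, the AP-1 subunit least dependent on activity, was the 1 gene of this list that was higher (0.24, adjusted p 0.0104). Egr4, of the family of Egr1 and Egr2, differed by -1.31 (SE 0.39, adjusted p 0.0111), and Nr4a3 was too dim to be tested.

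A list of 32 other genes known to be induced fast was counted in the same way. Of these 9 were lower, 6 were higher and 17 were not called, and the median was -0.16, beside -0.17 over all genes. Both shares lay below those of all genes, 44.1% lower and 22.2% higher. Amigo3, a cell adhesion molecule, had the smallest adjusted p of this list (-0.99, SE 0.086, adjusted p 2.75e-06), followed by Atf3 (-0.53, adjusted p 3.96e-05) and Nfil3 (-0.43, adjusted p 4.92e-05), which encode leucine zipper transcription factors. The kinase gene Pim1 was also lower (-0.60, adjusted p 0.000202). Klf6, a zinc finger transcription factor (0.42, adjusted p 0.000179), and Tiparp, an ADP-ribosyltransferase (0.61, adjusted p 0.00179), were higher, each without overlap between the groups.

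Of 14 later genes, which depend on activity but rise after the immediate early wave, 4 were higher, 3 were lower and 7 were not called, at a median of 0.066. Over all genes, 22.2% were called higher and 44.1% lower. Inhba, a subunit of activin (0.80, SE 0.10, adjusted p 4.03e-05), Bdnf, the neurotrophin (0.67, SE 0.17, adjusted p 0.00488), and Scg2, a granin of secretory vesicles (0.29, adjusted p 0.00358), were higher in HFD offspring. The value of Bdnf rests on 1 probe. By RT-qPCR the paper reported the opposite, a significant reduction of Bdnf in the hypothalamus of HFD offspring at P21. The reason for this discrepancy was not tested. Igf1, a growth factor, was higher by its brightest probe (0.97, adjusted p 0.00215), but the lowest of its 4 tested probes was at -0.33. Vgf, the precursor of several neuropeptides (-0.31, adjusted p 0.000672), and Mmp9, a matrix protease (-0.31, adjusted p 0.0064), were lower. Serpinb2 was too dim to be tested.

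Among 36 regulators that act before the immediate early genes (calcium channels and kinases, MAP kinases, CREB and SRF with their cofactors, MEF2 factors), 14 were lower, 5 were higher and 17 were not called, at a median of -0.095. Both shares lay below those of all genes, 44.1% lower and 22.2% higher. Crebbp, the histone acetyltransferase that CREB recruits, was higher (0.90, SE 0.084, adjusted p 4.40e-06). Creb1 itself (1.48, adjusted p 6.31e-06) and the kinase gene Camk4 (1.30, adjusted p 8.84e-06) were higher by their brightest probes, while other probes of these genes were at -0.064 and -0.058. Srf was lower by both of its probes, at -0.62 (adjusted p 0.000151) and -0.34. Camkk1, a kinase that activates Camk4 (-0.51, adjusted p 0.00018), and Mef2d (-0.51, adjusted p 0.000223) were lower too.

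**Figure D4:**
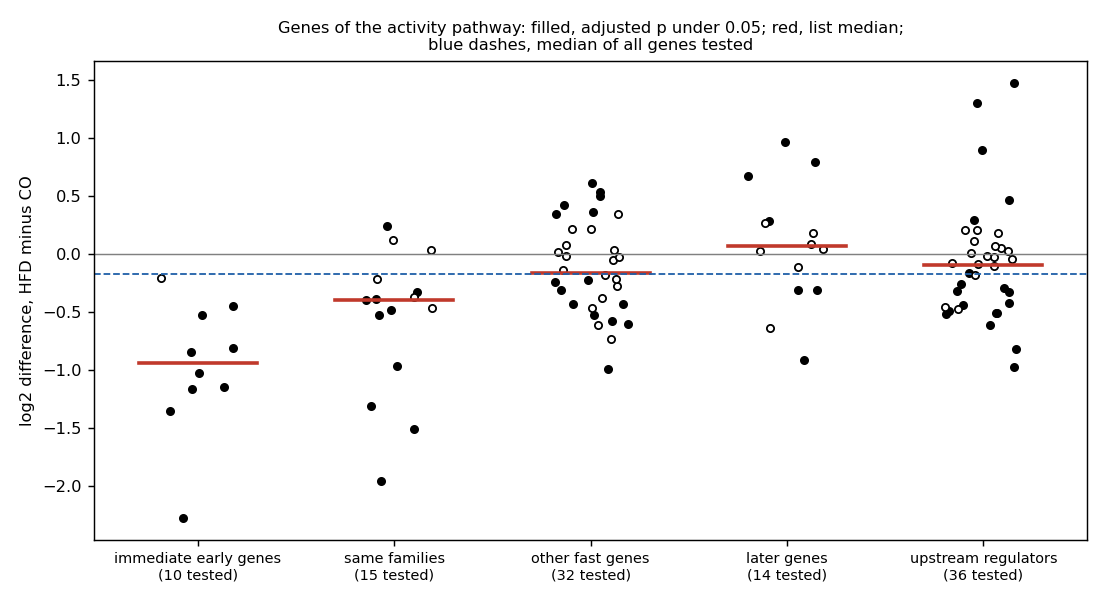
Differences between HFD and CO offspring (vertical axis, log2, HFD minus CO) for the 10 immediate early genes and 4 lists of related genes, 1 point a gene by its brightest probe, including the fitted values of Dusp5 and Fosl1. Dusp5 and Fosl1 passed the filter on dim probes only through the CO arrays. The list medians (red) are -0.94, -0.39, -0.16, 0.066 and -0.095 from left to right, beside -0.17 for all genes tested (dashed).

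Markers of the striatum, a region near the hypothalamus, were lower as well. Of 12 striatal markers, 10 were lower in HFD offspring, none was higher and 2 were not called, at a median of -1.21. Over all genes, 44.1% were called lower and 22.2% higher. Adora2a, the adenosine receptor of striatopallidal neurons (-2.71), and Ppp1r1b, which encodes DARPP-32 (-2.06), had the largest differences. The summed linear level of the 12 markers was 21.6 to 49.96 times the 75th percentile on HFD arrays and 29.6 to 135 times on CO arrays, and all 12 were well above background on every array. Of 12 markers of cortex and hippocampus, 4 were lower, 1 was higher and 7 were not called. In tissue of mixed cells, fewer cells of a type and less RNA per cell cannot be told apart.

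Egr2 had the highest correlation with the striatal list of all members. The mean log2 deviation of the list was -1.32, -0.53, -1.02, -0.29, -0.51 and 0.15 on HFD arrays 1 to 6, and 1.30, 1.62, 0.09, -0.58 and 1.09 on CO arrays 1 to 5. HFD replicate 1 was the lowest and HFD replicate 6 the highest of their group for both the list and Egr2, as were CO replicates 4 and 2 among the controls. With group means subtracted, Egr2 correlated with the list at r = 0.94 (permutation p 2.31e-05, adjusted over 20 relations 0.000463) and rho = 0.96 (adjusted p 0.00139) over the 11 arrays, at 0.88 without CO replicates 2 and 4, and at 0.92 over the 6 HFD arrays. Egr1 gave r = 0.83 (permutation p 0.00718, adjusted p 0.0524), which was 0.61 without the same arrays. Fos gave r = -0.04 (permutation p 0.910) over the 11 arrays, but -0.75 without the same arrays and -0.91 over the 6 HFD arrays, so the value near 0 does not describe both groups. With the list of cortex and hippocampus, Fos gave r = -0.74 (permutation p 0.00786, adjusted p 0.0524), which was -0.56 without HFD replicate 1 and CO replicate 5. Of the 20 relations with the 2 lists, that of Egr2 with the striatal list alone passed the test. These 2 lists were chosen after the values had been seen, and the adjustment does not cover that choice.

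With the mean of the striatal list as a covariate, a fit added after these values had been seen, 7 members were called lower. The share of all genes called lower in that fit was 31.5%. Egr2 differed by -0.70 in this fit (adjusted p 0.0386), against -2.28 without the covariate. Egr1 (-0.30, adjusted p 0.162) and Fosb (-0.22, adjusted p 0.390) did not pass the test. Fos (-1.06, adjusted p 0.0102), Junb (-1.01, adjusted p 0.00155), Arc (-0.90, adjusted p 0.00626), Nr4a1 (-0.87, adjusted p 0.00549), Ier2 (-0.55, adjusted p 0.000851) and Npas4 (-0.55, adjusted p 0.0277) stayed lower. The list and the group were related, since its mean was below 0 on 5 of 6 HFD arrays and above 0 on 4 of 5 CO arrays.

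The other marker lists were counted in the fit without the covariate, in which 44.1% of all genes were called lower and 22.2% higher. Of 10 thalamic markers 7 were higher and 2 lower (median 0.54), and of 12 markers of endothelium and pericytes 6 were higher and 4 lower (median 0.15). Of 10 oligodendrocyte markers 7 were lower and 1 higher (median -0.59), with a summed level of 303 to 381 times the 75th percentile on HFD arrays and 348 to 396 times on CO arrays. Of 12 microglial markers 7 were lower and 3 higher (median -0.31), but their summed level was not lower, at 75.2 to 87.4 times the 75th percentile on HFD arrays and 67.5 to 75.5 times on CO arrays. Of 10 astrocyte markers 2 were lower and 2 higher, with a summed level of 181 to 208 times on HFD arrays and 188 to 252 times on CO arrays. Of 12 general neuronal markers 6 were higher and 2 lower, with a summed level of 230 to 255 times the 75th percentile on HFD arrays and 213 to 222 times on CO arrays. Of 4 tested blood genes 3 were lower, and their summed level was 58.8 to 79.0 times the 75th percentile on HFD arrays, against 92.7 to 116 times on CO arrays, without overlap. The part of these lists in the differences of the immediate early genes was not tested.

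**Figure D5:**
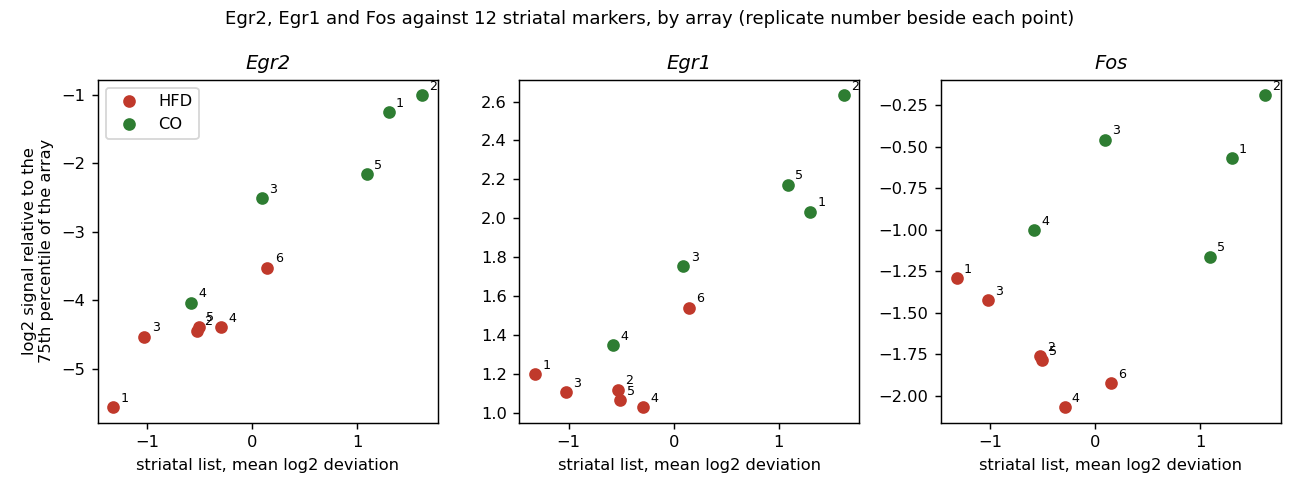
Levels of Egr2, Egr1 and Fos (vertical axes, log2 signal relative to the 75th percentile of the array) against the mean log2 deviation of 12 striatal markers (horizontal axis), 1 point an array, HFD in red and CO in green with the replicate number beside it. With group means subtracted, r is 0.94 for Egr2, 0.83 for Egr1 and -0.04 for Fos, whose levels run opposite to the markers among the HFD arrays (r = -0.91).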

How the data were processed

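Hypothalamic RNA of 6 HFD and 5 CO offspring was hybridized to single-dye Agilent mouse arrays. The authors deposited scanner output, and the intensity values used are background-subtracted processed signals on a linear scale from Feature Extraction (version 10.8 per the labels). Flag columns deposited with the intensity values mark spots well above background, saturated spots and outliers. How arrays were scaled to each other (not given in the sources used here) cannot be stated. Each array had its own values, with no identical pair.

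From these, log2 of the processed signal minus the 75th percentile of each array was computed. Controls and spots with an outlier mark were dropped, and repeated spots were averaged. The 31788 probes that exceeded background clearly on 5 or more of the 11 arrays were compared with limma 3.58.1 in R 4.3.3 (HFD minus CO, two-sided, Benjamini-Hochberg adjustment over all probes tested, threshold 0.05). Counts over genes used the brightest of a gene's probes and adjustment over 17186 genes. Accessions of 26369 probes matched 19987 genes of RefSeq. A probe too dim on every array of 1 group was given as a bound against the lowest signal clearly over background. The fit was tested on simulated data. The number of arrays limits the precision.

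The named genes were the 10 members, from each list the 6 genes of lowest adjusted p, and the 5 genes most like Fos and Egr1. Egr4, Nr4a3, Jund, Serpinb2 and the named striatal and hypothalamic markers were added after their values had been seen. The members, lists and striatal covariate were chosen with earlier results of these data known. The Rank Product test of the methods, which resamples over genes, was not run. Alternatives were other scalings, normexp (offset 50, on spot medians, since no mean signal column was used), filters on dim probes, blocks, array weights, an exact Mann-Whitney test, a threshold of 0.001, the mean over probes and leaving out each array.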

Additional observations from a re-analysis of the deposited data

Results flagged for a closer look

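In 20 groups of arrays, 1 for each of the 10 members in HFD and in CO offspring, an array was far from the others of its group in 2, and chance alone gives about 5% of such groups. Egr1 was at 1.54 log2 units (9568 intensity units) in HFD replicate 6, and the nearest HFD array was at 1.20. Ier2 was at -4.15 (178 intensity units) in HFD replicate 5, and the nearest HFD array was at -3.97. The 2 values came from different arrays and lay on different sides of their groups.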

How the results depend on the processing

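No member changed direction in any setting run. Fos, Nr4a1, Arc and Npas4 passed the test in all 26 alternatives, and the count of members called lower stayed between 8 and 9 when 1 array was left out, was 10 with spike-in scaling and with array weights, 7 with the striatal covariate and 6 with normexp. In the same order, these last settings called 83.5%, 44.5%, 31.5% and 22.5% of all genes lower. At a threshold of 0.001, Fosb, Egr1 and Egr2 were not called. With spike-in scaling, Dusp1 differed by -0.87 (adjusted p 2.21e-05), and the lists had 0 higher and 15 lower (same families), 0 and 27 (other fast genes), 0 and 11 (later genes) and 3 and 32 (upstream regulators), since the whole scale moved down. The share of higher among all called genes was 33.5% in the report, 6.25% with spike-in scaling and 41.0% with normexp. Normexp called 2691 genes higher and 3865 lower, and the threshold of 0.001 called 2254 and 4122, against 3819 and 7586. Without a filter on dim probes 2 genes of the same families were higher.

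Leaving out 1 array gave 9 to 11 lower and 1 higher in the same families, 8 to 13 lower and 5 to 7 higher among other fast genes, 2 to 4 lower and 4 to 6 higher among later genes, and 13 to 15 lower and 5 to 6 higher among upstream regulators. These fits called 41.0 to 44.1% of all 17186 genes lower, and 3577 to 3813 genes higher. The median r of the 45 pairs ran from 0.35, without CO replicate 4, to 0.56. Same-numbered HFD and CO replicates did not pair (correlations of their deviations 0.22, -0.020, -0.087, 0.016 and 0.16), and with the replicate number as a block the 9 members stayed called (Egr2 -2.47, Fos -0.99, Fosb adjusted p 0.0443) and Dusp1 did not pass (adjusted p 0.096). The fit with this block called 41.5% of all genes lower. Normexp on mean signals was not run. Signal over background limits Junb, Ier2 and Egr2, which lay at 69 to 285 intensity units on HFD arrays.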
